A study of Mus musculus with 6 samples.

Results

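Gap junction genes were followed in the heart ventricles of E9.5 mouse embryos: Gja1, Gja4, Gja5, Gjc1 and Gjb2, which encode connexins, and Tjp1, which encodes the scaffold protein ZO1. These 6 genes were taken by name from the 23284 genes in the deposited table, and each had 1 row. RNA-seq was made from 3 WT and 3 KD embryos, whose labels give the strain as C57BL/6. They were obtained by tetraploid complementation, so that the body of each embryo was built by ES cells. The WT embryos came from wild type ES cells, and the KD embryos carried the genotype Tbx5ua -/-, in which polyadenylation signals inserted in both alleles stop transcription of Tbx5ua, the lncRNA divergent to Tbx5, early. The KD ES cells were derived from C57BL/6 J, were picked as clones and had their selection cassettes removed with Cre recombinase. The labels do not say which ES cell line gave which embryo. Tbx5ua itself was not analysed here, so the targeted gene gives no check of the labels.

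Connexins are channel proteins that join the cytoplasm of neighboring cells. Connexins assemble into a hemichannel in each membrane, and the hemichannels of neighboring cells dock into a gap junction channel through which ions and small molecules pass. In the heart this coupling carries the electrical impulse from cell to cell, and which connexins a cell makes sets how well it conducts. Gja1 (Cx43) is the main connexin of working ventricular myocardium, Gja5 (Cx40) is typical of atrial myocardium, early trabeculae, the fast conduction system and arterial endothelium, Gjc1 (Cx45) is present from the earliest heart tube on and persists in nodal tissue, Gja4 (Cx37) is an endothelial connexin, and Gjb2 (Cx26) belongs to epithelia and the inner ear. ZO1 binds the tail of Cx43 at the edge of the junction.

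The table holds 1 FPKM value (fragments per kilobase of transcript, scaled to the number of mapped fragments) for all WT embryos and 1 for all KD embryos. It has no value of single embryos, so no SD can be given, no difference can be set against the spread between embryos, and no test was made. The differences are descriptions of these groups. The depth of the libraries is unknown. In bulk tissue, fewer cells of a type and less RNA per cell cannot be told apart. Genes with at least 1 FPKM in either group and a value above 0 in both, 11548 in all, were kept as the background, and a gene was called when it differed by at least 1.5-fold. KD was higher by that much in 4.62% of the genes kept and lower in 3.10%, and the median log2 ratio of KD to WT was 0.00. All 12 cardiomyocyte markers were kept, and Myl2, the regulatory light chain typical of ventricular myocardium, had 10924 in WT against 12702 FPKM in KD. The highest cardiomyocyte marker in both groups, Myl7, had 13643 in WT against 12907 FPKM in KD. Atrial markers were present at lower levels, with 6 of 7 kept and a highest level, that of Angpt1, of 14.0 in WT against 14.4 FPKM in KD, and Sln was listed at 0 in both groups.

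Gja5 was the member with the largest fold between the groups. It was listed at 7.02 in WT against 12.1 FPKM in KD, 1.73-fold higher in KD, a log2 ratio of 0.79. Of the 11548 genes kept, 309 had a larger log2 ratio. Its WT level exceeded that of 41.9% of the genes kept and its KD level that of 55.4%, so it stood below the middle of the expressed genes in WT and above it in KD. Gja5 was the 1 member called of the 5 that were kept, all of which had at least 1 FPKM in both groups, beside the 4.62% of all genes kept that were higher by this much. The table places Gja5 on chromosome 3 from 97032416 to 97053634 (mm10), on the plus strand in the GENCODE annotation, and no other gene of the table overlaps that span. GENCODE gives Gja5 as a whole a wider span, from 96904693 to 97077416.

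Gja4 and Gja1 had the highest levels of the members in both groups, and both were higher in KD by less than 1.5-fold. Gja4 was listed at 28.8 in WT against 39.8 FPKM in KD, 1.38-fold higher in KD with a log2 ratio of 0.47. Its difference of 11.0 FPKM was the largest of the members, ahead of 8.45 FPKM for Gja1 and 5.11 FPKM for Gja5, so the order by FPKM is not the order by fold. Gja1 was listed at 37.5 in WT against 45.9 FPKM in KD, 1.23-fold higher in KD with a log2 ratio of 0.29. Among the genes kept, 92.9% had a lower log2 ratio than Gja4 and 86.0% a lower one than Gja1. Gja4 lies on chromosome 4 from 127311421 to 127313978 on the minus strand, and Gja1 on chromosome 10 from 56377300 to 56390419 on the plus strand.

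The promoters given here are those of Gja5, Gja4 and Gja1, the kept members that were higher in KD. They are shown because T-box, Nkx2-5 and Gata factors are known to act on connexin genes in the heart. Tbx5ua also arises beside a T-box gene. The sequences are the 250 bases before the start site in RefSeq (GRCm38.p6), 5′ to 3′ on the strand of the gene. They contain no annotated exon. Capitals mark matches, on either strand, to AGGTGT (the core of the T-box site), AAGTG (Nkx2-5), GATAA (Gata) and GGGCGG (Sp1). Gja5 is at chr3:97032152-97032401 on the plus strand, Gja4 at chr4:127314040-127314289 on the minus strand, and Gja1 at chr10:56377050-56377299 on the plus strand.
Gja5: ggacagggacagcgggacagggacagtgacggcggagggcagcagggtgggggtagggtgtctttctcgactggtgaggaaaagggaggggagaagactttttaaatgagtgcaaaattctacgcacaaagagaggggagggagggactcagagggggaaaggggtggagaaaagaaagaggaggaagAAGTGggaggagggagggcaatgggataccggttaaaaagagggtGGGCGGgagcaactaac
Gja4: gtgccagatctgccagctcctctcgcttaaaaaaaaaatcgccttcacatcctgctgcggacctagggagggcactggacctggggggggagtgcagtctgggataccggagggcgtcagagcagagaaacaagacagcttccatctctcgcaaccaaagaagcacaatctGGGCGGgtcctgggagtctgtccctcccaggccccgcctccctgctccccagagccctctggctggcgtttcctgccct
Gja1: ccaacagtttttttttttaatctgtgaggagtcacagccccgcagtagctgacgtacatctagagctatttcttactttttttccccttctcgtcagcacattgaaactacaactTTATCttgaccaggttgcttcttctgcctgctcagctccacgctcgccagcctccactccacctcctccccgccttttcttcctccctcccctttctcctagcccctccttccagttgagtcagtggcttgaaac

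Each motif was searched in windows of 300 bases, which add the 50 bases after the start site, and 5 of the 6 members matched an entry of the promoter table. AGGTGT was found in 0 of the windows of Gja5, Gja4, Gja1 and Tjp1 and once in that of Gjb2, 8 bases before the start site, and 13.7% of all 32851 windows hold it. Of the 5 windows, AAGTG was found in that of Gja5 alone, 62 bases before the start site, and 46.4% of all windows hold it. GATAA was found in the windows of Gja1, 135 bases before the start site, and Tjp1, and 25.4% of all windows hold it. GGGCGG was found in the windows of Gja5, 17 bases before the start site, of Gja4, 79 bases before it, and of Gjb2 and Tjp1, and 35.7% of all windows hold it. The matches did not overlap each other. They are matches of letters and no measure of binding.

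Gjc1 and Tjp1 were slightly lower in KD. Gjc1 was listed at 8.76 in WT against 8.01 FPKM in KD, a log2 ratio of -0.13 that lay above those of 27.3% of the genes kept. Gjc1 lies on chromosome 11 from 102799478 to 102819686 on the minus strand. Tjp1 was listed at 11.2 in WT against 10.8 FPKM in KD, a log2 ratio of -0.06, on chromosome 7 from 65296165 to 65371244. Its relative Tjp3, which encodes a scaffold of epithelial tight junctions, was not kept, with 0.756 in WT against 0.905 FPKM in KD. The ratio of Gja1 to Tjp1 FPKM was 3.35 in WT and 4.27 in KD.

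Gjb2 was near 0 in both groups. It was listed at 0 in WT and at 0.0402 FPKM in KD, on chromosome 14 from 57098602 to 57104702, and no fold is given. Surface epithelial markers, which accompany Gjb2 in epithelia, were also low in the same ventricles: 0 of 7 were kept, their summed level was 0.197 in WT against 0.483 FPKM in KD, and Krt5, a defining keratin of stratified epithelium, was listed at 0 in both groups.

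**Figure D1:**
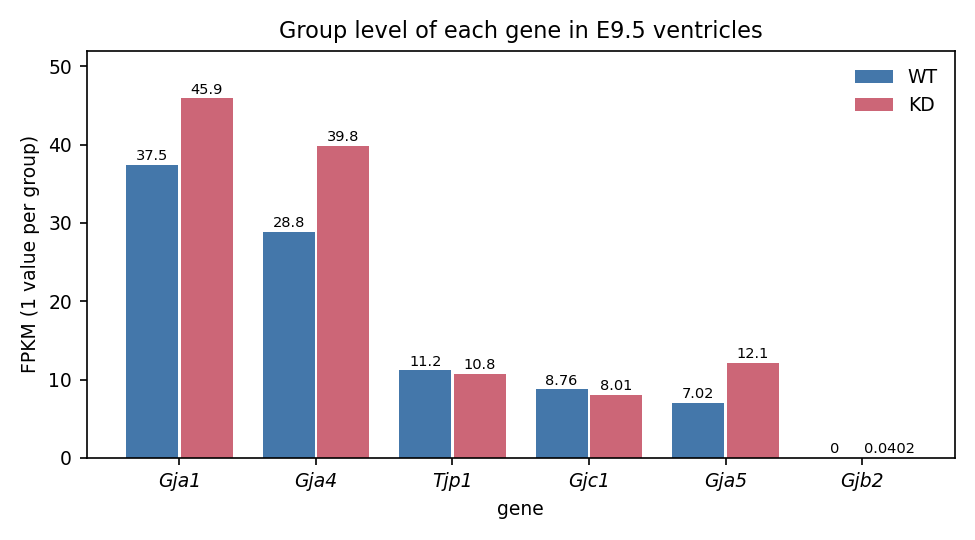
The bars give the FPKM of each gene as 1 value for the WT embryos (blue) and 1 for the KD embryos (red), with no error bars because the table holds no values of single embryos. Gja1, Gja4 and Gja5 stand higher in KD, Gjc1 and Tjp1 slightly lower, and Gjb2 is near 0.

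The order of the members by level differed between the groups in the place of Gja5. FPKM is scaled to transcript length, so levels of different genes can be set side by side. In WT the order from high to low was Gja1, Gja4, Tjp1, Gjc1, Gja5 and Gjb2, and in KD Gja5 stood the third, above Tjp1 and Gjc1. Gja5 had 0.802 times the FPKM of Gjc1 in WT and 1.52 times in KD. Gja1 had 5.34 times the FPKM of Gja5 in WT and 3.78 times in KD, while Gja1 and Gja4 lay closer, at 1.30 times in WT and 1.15 times in KD. Without values of single embryos it cannot be said which neighbours in these orders differ beyond their spread.

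**Figure D2:**
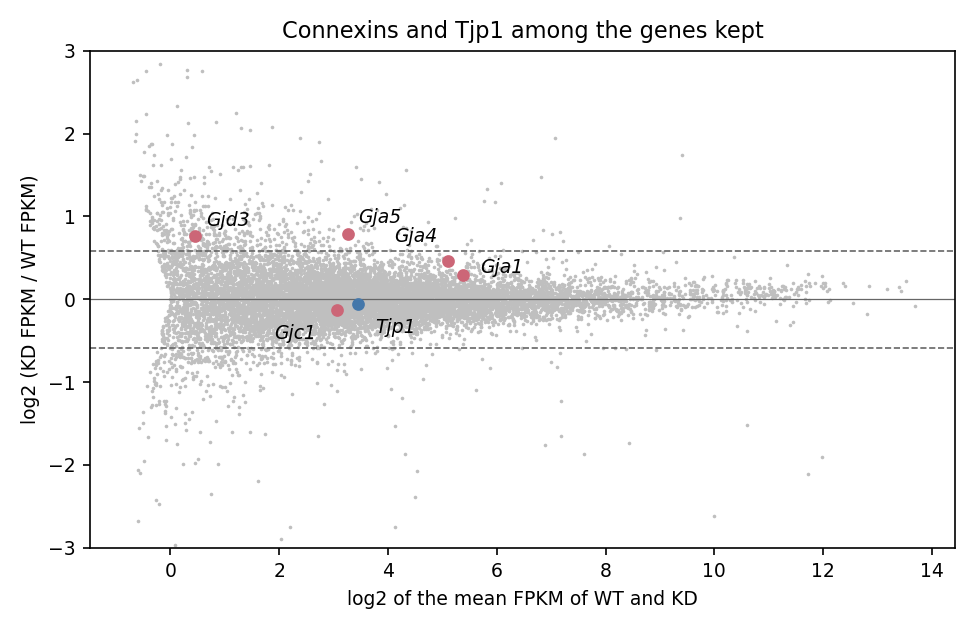
Each grey point is 1 of the genes kept, with the log2 of its mean FPKM on the horizontal axis and the log2 ratio of KD to WT on the vertical axis; 11 genes beyond a log2 ratio of 3 in size are outside the plot. The dashed lines mark 1.5-fold, and Gja5 and Gjd3 lie above the upper line while Gja1, Gja4, Gjc1 (red) and Tjp1 (blue) lie between the lines.

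Within the whole connexin family of 20 genes, 5 were kept: Gja1, Gja4, Gja5, Gjc1 and Gjd3. Gjd3, known as cx30.2 and linked to slow conduction in nodal tissue, was listed at 1.02 in WT against 1.73 FPKM in KD, a log2 ratio of 0.76. It was called at 1.5-fold with Gja5, so 2 of the 5 connexins kept were called higher and 0 lower, beside 4.62% and 3.10% of all genes kept, and the median log2 ratio of the 5 was 0.47. Gjd3 is just above the FPKM minimum. Gja5 alone was called with a pseudocount of 1, beside 1.96% of all genes higher, or with a minimum of 5 FPKM, beside 1.78%. The other 15 connexin genes were low, with a highest value of 0.630 FPKM in WT, that of Gje1, and 3 of them were listed at 0 in both groups. Their levels summed to 1.73 in WT against 1.63 FPKM in KD.

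On chromosome 14 Gjb2 has on its sides Gja3, 40656 bases away at 0.107 in WT against 0.106 FPKM in KD, and Gjb6, 18600 bases away and listed at 0 in both groups. In all but Gjc3, Gjd2, Gjd4 and Gje1 of the 20 connexin genes, GENCODE has a coding transcript whose coding sequence lies in 1 exon. Tjp1, by contrast, has 28 coding exons in its longest coding transcript.

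Summed over the family, connexin mRNA was listed at 84.8 in WT against 109.2 FPKM in KD, 1.29-fold higher in KD. Gja1, Gja4, Gja5 and Gjc1 made up 96.8% of that total for WT and 96.9% for KD. The share of Gja1 was 44.2% in WT and 42.0% in KD, and that of Gja4 34.0% in WT and 36.5% in KD. The share of Gja5 was 8.28% in WT and 11.1% in KD, while that of Gjc1 was 10.3% in WT and 7.33% in KD. A share also depends on the size of the sum, which was larger in KD. Gja1 thus had a lower share in KD at a higher level, 37.5 in WT against 45.9 FPKM in KD. Gjc1 differed less in level, at 8.76 in WT against 8.01 FPKM in KD, than in share.

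**Figure D3:**
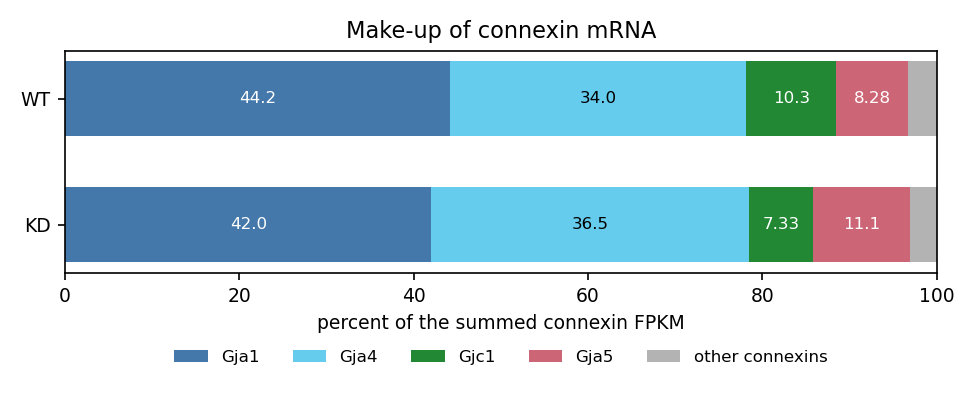
Each bar divides the summed FPKM of the 20 connexin genes of a group, in percent, among Gja1, Gja4, Gjc1, Gja5 and the other connexins. The segment of Gja5 covers 8.28% in WT and 11.1% in KD, and that of Gjc1 10.3% in WT and 7.33% in KD.

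Pannexins form related channels that mostly open to the outside of the cell. Panx1 was listed at 8.36 in WT against 11.5 FPKM in KD, a log2 ratio of 0.46, within 1.5-fold. Panx2 was not kept, with 0.892 in WT against 0.350 FPKM in KD, and Panx3 was listed at 0 in both groups.

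Partners of connexins at the intercalated disc, where cardiomyocytes of the adult heart meet end to end, were read here in embryonic ventricles. They had log2 ratios from -0.41 for Ank3 to 0.64 for Cav3, with 7 above WT and 9 below it. Of 16 genes for adherens junctions, desmosomes and associated proteins, all were kept, 1 was called higher and 0 lower, near the 4.62% and 3.10% of all genes kept, and the median log2 ratio was -0.01, beside 0.00 for all genes kept. The gene called was Cav3, which encodes the muscle caveolin, at 23.2 in WT against 36.2 FPKM in KD. The highest genes of the list were Ctnnb1, for beta-catenin, at 95.6 in WT against 102.7 FPKM in KD, and Ctnna1, for alpha-catenin, at 97.8 in WT against 94.1 FPKM in KD. Cdh2, the N-cadherin on which gap junctions of cardiomyocytes depend, had 40.1 in WT against 39.9 FPKM in KD. Of 15 genes for trafficking, kinases and turnover of connexins, 1 was called higher and 0 lower, again near 4.62% and 3.10%, with a median log2 ratio of 0.05. This was Cav1, the caveolin typical of endothelium and mesothelium, at 2.77 in WT against 5.21 FPKM in KD. The highest of that list, the chaperone gene Hsp90aa1, had 771 in WT against 597 FPKM in KD, and Nedd4, for a ubiquitin ligase that acts on Cx43, had 201 in WT against 174 FPKM in KD.

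Transcription factors that act on connexin genes had log2 ratios from -0.94 to 1.03. Of 20 genes 19 were kept, 3 were called higher and 1 lower, with a median log2 ratio of 0.03, beside background shares of 4.62% and 3.10%. Called higher were Irx5, an Iroquois factor of the ventricle, at 7.14 in WT against 14.6 FPKM in KD, Hey1, a Notch target, at 13.3 in WT against 23.1 FPKM in KD, and Tbx18, a T-box factor of epicardium and sinus horns, at 3.46 in WT against 6.56 FPKM in KD. Irx3, which is known to raise Gja5 and lower Gja1 in the ventricular conduction system, had 5.51 in WT against 8.16 FPKM in KD, a log2 ratio of 0.57 just under the limit of 0.58. Called lower was Msx1, a repressor that acts with Tbx2 and Tbx3 on Gja1, at 5.60 in WT against 2.92 FPKM in KD. Of the other T-box genes, Tbx5, a known activator of Gja5, had 17.2 in WT against 15.7 FPKM in KD, and the repressors Tbx2 and Tbx3 had log2 ratios of -0.07 and -0.19. The highest genes of the list by the mean of both groups, Nkx2-5 and Tbx20, had log2 ratios of 0.14 and -0.25.

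**Figure D4:**
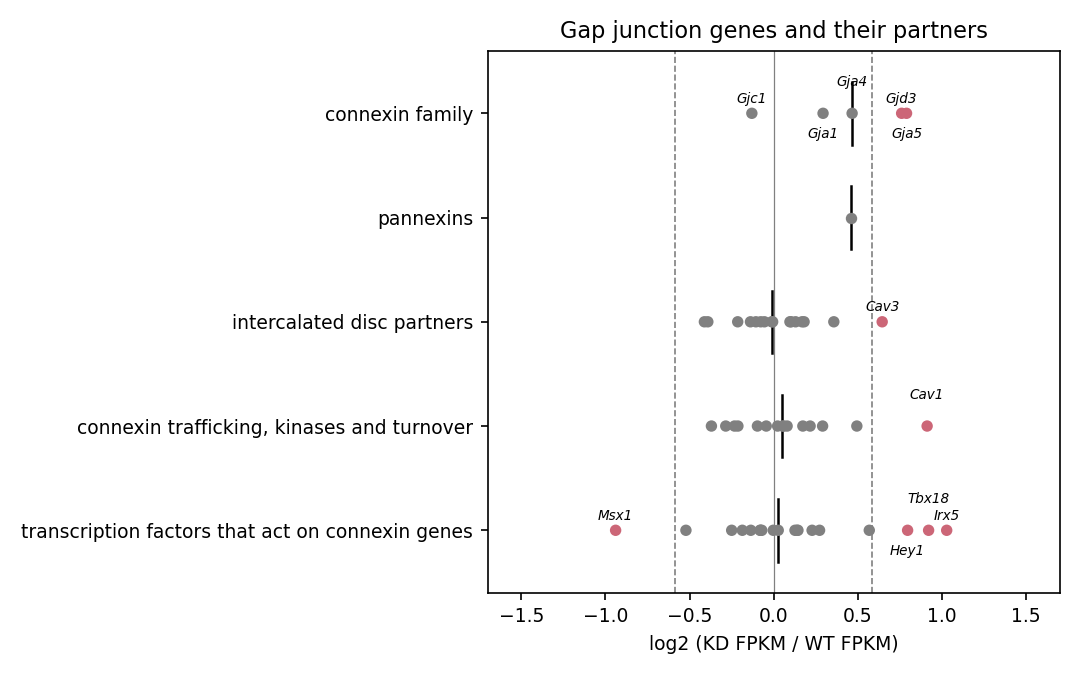
Each point is a gene that was kept, placed by its log2 ratio of KD to WT, with the lists of gap junction genes and partners in rows, the median of a list as a black bar and the dashed lines at 1.5-fold. Called genes are red, and Gja5 and Gjd3 stand at the upper end of the connexin family, apart from Gjc1 below 0.

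Gja5 is made by several cell types of the heart, and their markers did not all stand at one level in KD. Of 7 trabecular markers all were kept and 0 were called, with a summed level of 3420 in WT against 3738 FPKM in KD, and the highest, Nppa, had 2588 in WT against 2967 FPKM in KD. That sum is mostly Nppa and Nppb, and the median log2 ratio of the list was 0.25. Of the 7, 5 were above WT, up to 0.57 for Irx3, and 2 were below it, Nppb at -0.43 and Bmp10 at -0.18. Of the atrial markers 3 of 6 kept were called higher, beside 4.62% of all genes kept, and the list summed to 24.8 in WT against 28.8 FPKM in KD. The 3 were low: Nr2f2, which gives atrial cardiomyocytes their identity, had 2.01 in WT against 4.15 FPKM in KD, its relative Nr2f1 0.552 in WT against 1.07 FPKM in KD, and Vsnl1 0.555 in WT against 1.14 FPKM in KD. Nr2f1 and Vsnl1 were kept through their KD level alone, and with at least 1 FPKM asked of both groups they would not be counted. The other atrial markers kept, Angpt1, Stard10 and Kcna5, had log2 ratios of 0.05, 0.08 and -0.15. Of the 6 atrial markers kept, 5 were above WT and 1 below it, with a median log2 ratio of 0.52. Of 10 arterial endothelial markers 9 were kept and 1, Hey1, was called higher, beside 4.62% of all genes kept. That list summed to 60.9 in WT against 72.2 FPKM in KD, most of the difference being the 9.79 FPKM of Hey1, and its median log2 ratio was 0.01. Of 7 conduction markers 3 were kept and 0 were called, with sums of 339.8 in WT against 357.7 FPKM in KD that rest mostly on Id2, at 331.8 in WT against 350.6 FPKM in KD, and the pacemaker channel gene Hcn4 had 3.57 in WT against 2.89 FPKM in KD. The part of these cell types in the difference of Gja5 was not tested.

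Gja4 and Gja1 stood beside other markers. Of 12 endocardial and endothelial markers all were kept and 0 were called, the list summed to 386.0 in WT against 467.8 FPKM in KD, and the highest, Plvap, had 128.6 in WT against 179.2 FPKM in KD, a log2 ratio of 0.48 close to that of Gja4. Plvap makes up 50.6 FPKM of the difference between those sums, and the median log2 ratio of the list was 0.07. Of the 12, 8 were above WT and 4 below it. Emcn and Egfl7 had log2 ratios of 0.41 and 0.32, while Pecam1 and Cdh5, which define endothelium, had 0.04 and -0.11. Cardiomyocyte markers, of which 0 of 12 were called, had log2 ratios from -0.25 to 0.22 and a median of -0.03, against 0.29 for Gja1. Compact myocardium markers had log2 ratios from -0.43 for Mycn to 0.13 for Hey2, with 0 of 3 called. Epicardial markers, of which 5 of 6 were called higher beside 4.62% of all genes kept, summed to 47.0 in WT against 95.9 FPKM in KD. Of these, Tcf21 had 11.9 in WT against 25.5 FPKM in KD, Upk1b 9.17 in WT against 22.1 FPKM in KD, and Upk3b 7.80 in WT against 20.7 FPKM in KD. Tbx18 is given above, Wt1 was within 1.5-fold, and Aldh1a2, at 0.872 in WT against 1.74 FPKM in KD, was kept through its KD level alone. Erythroid markers, of which 0 of 7 were called, summed to 11450 in WT against 11530 FPKM in KD, and the embryonic globin gene Hba-x had 4401 in WT against 4318 FPKM in KD. Hepatic and yolk sac markers, of which 0 of 6 were kept, summed to 0.829 in WT against 1.41 FPKM in KD, with Alb and Fgb listed at 0 in both groups. The remaining lists had few genes kept, so their counts say little beside the 4.62% higher and 3.10% lower of all genes kept. Of 7 neural crest and pharyngeal markers 1 was kept, Twist1, which was called higher at 1.98 in WT against 3.23 FPKM in KD, and of 5 outflow markers 2 were kept, of which Fgf8 was called lower at 2.45 in WT against 1.41 FPKM in KD. Of 5 smooth muscle markers 4 were kept, of which Tagln was called lower at 400.3 in WT against 263.2 FPKM in KD. The part of these cell types in the levels of Gja4 and Gja1 was not tested.

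**Figure D5:**
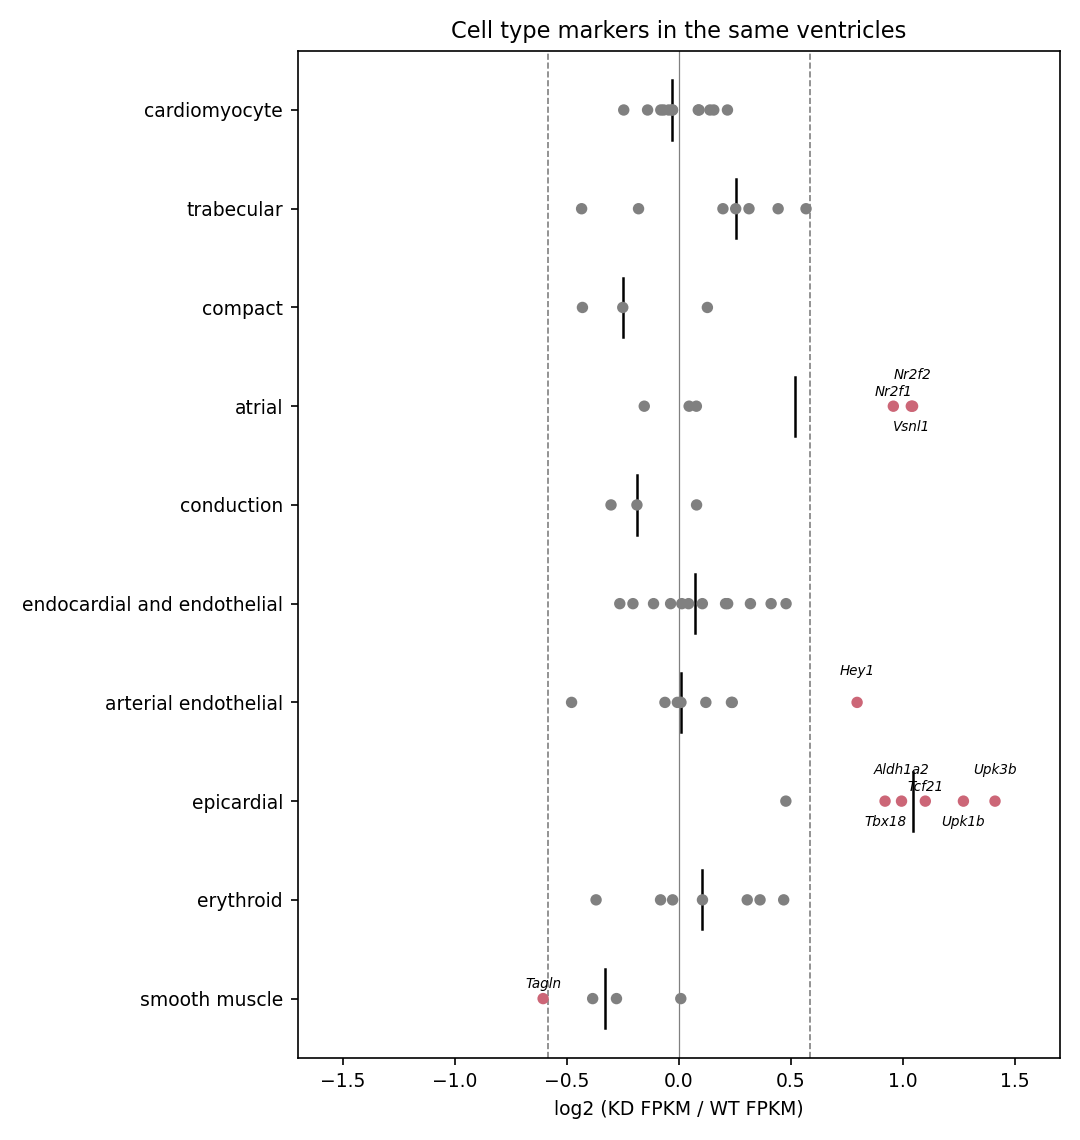
Each point is a marker gene that was kept, by cell type, placed by its log2 ratio of KD to WT, with the median of each list as a black bar, called genes in red and the dashed lines at 1.5-fold. The epicardial markers lie to the right, 5 of 6 past 1.5-fold beside 4.62% of all genes kept, and the cardiomyocyte markers lie around 0.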

How the data were processed

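Total RNA of E9.5 ventricles (3 WT and 3 KD embryos) was made into Smart-Seq2 libraries and sequenced from a single end. The authors deposited 1 table of FPKM values, estimated per gene and group; the submitters' processing notes name TopHat, Bowtie2, Cuffdiff and mm10, and versions and gene annotation are not given in the sources used here. The table heads the KD group KO. Its columns of fold changes, test scores, p-values, q-values and significance are the authors' own comparison and were not used. It has 0 columns of single embryos, so no test, SD or interval was computed, and depth is unknown. A total of 2 genes with too many reads are listed at 0 and have no value.

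Log2 ratios of KD to WT were taken with no pseudocount for genes that reached 1 FPKM in WT or KD and were above 0 in both; 58 genes with at least 1 FPKM in 1 group and 0 in the other got no ratio. Starts were shifted to count from 1. Named genes were the members, connexins and pannexins with at least 1 FPKM, called genes of the other lists, and the highest ones by mean FPKM of the partner lists and of marker lists with no called gene; other genes given with values, such as Cdh2, Irx3, Tbx5, Hcn4, Nppb, Ank3, Emcn, Pecam1, Angpt1, Myl2 and the connexins under 1 FPKM, were chosen after their values were seen. Members and lists were chosen with earlier results of these data known. The ratio and count steps were tested on simulated data. Promoters came from RefSeq and gene models from GENCODE release M21 (GRCm38). Sequence features of proteins were not analysed here, and some genes of the lists are not reported here. Python 3.11.15, NumPy 2.4.6, pandas 2.3.3 and Matplotlib 3.10.9 were used.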

Additional observations from a re-analysis of the deposited data

How the results depend on the processing

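The call of Gja5 was the same under each filter, pseudocount and scaling tried, and changed with the fold alone. With a lower limit, a log2 ratio of 0.32, Gja4 was called as well (2 members) beside 12.4% of all genes higher. With a fold of 2 the number of members and of connexins called was 0, beside 1.44% of all genes higher and 0.97% lower. The count of connexins called was 1 with a minimum of 5 FPKM, beside 1.78% of all genes higher, or a pseudocount of 1, beside 1.96%. Both leave out Gjd3. The count was 3 with the lower limit, which adds Gja4, or with no minimum, which adds Gja6 at under 1 FPKM beside 11.8% of all genes higher. Over all genes the count of 891 became 2519 with that lower limit, 278 with a fold of 2, 551 with at least 1 FPKM in both groups, 230 with at least 5 FPKM in either group, 3321 with no minimum and 367 with a pseudocount of 1. With a minimum of 5 FPKM, 1.78% of genes were higher and 1.14% lower, and with a pseudocount of 1, 1.96% were higher and 1.22% lower.

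All 5 ratios kept their direction, but these settings were no check of it. A pseudocount cannot change the direction of a ratio, and the scalings shift every gene by the same small amount. With a pseudocount of 1 the log2 ratios were 0.45 for Gja4, 0.71 for Gja5, -0.12 for Gjc1 and -0.05 for Tjp1, with a pseudocount of 0.1 they were 0.46 for Gja4 and 0.78 for Gja5, and the same values of 0.46 and 0.78 resulted with the median subtracted. With both groups scaled to the same FPKM sum they were 0.26 for Gja1, 0.44 for Gja4, 0.76 for Gja5, -0.16 for Gjc1 and -0.09 for Tjp1. Each of these shifts is listed because the table gives no spread to set it against. Over the connexins with at least 1 FPKM in both groups the shares in WT and KD were 45.1% and 42.7% for Gja1, 34.7% and 37.0% for Gja4, 8.45% and 11.3% for Gja5, and 10.5% and 7.44% for Gjc1.

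No paired analysis was possible because single embryos have no columns. For the same reason the fit planned over single embryos, with and without the replicate as a block, was not run. As depth is unknown, the precision of low genes such as Gjd3 is unknown too.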
